A study of Mus musculus with 6 samples.

Results

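The 10 genes described here encode the cytosolic heat shock proteins that keep other proteins folded, together with the mitochondrial chaperonin Hspd1 and the transcription factor Hsf1. They were taken by symbol from the deposited tables, and all 10 were found among 30733 gene symbols. The tables come from RNA sequencing of bone marrow cells sorted as haematopoietic stem cells (HSCs, the cells from which all blood lineages arise) from wild-type mice. Every mouse had been given 5 Gy of irradiation to the whole body, so both groups were irradiated and no value below compares irradiated with unirradiated cells. One group, MHCII-hi, had a high surface level of the antigen-presenting molecule MHC class II and the other, MHCII-lo, a low level, with 3 libraries in each. The labels are silent on the age of the mice, the gates of the sort and the time since irradiation. Nothing in the labels says whether the 3 libraries of a group came from separate mice, so each p-value reflects only library-to-library spread and that spread may be technical.

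Heat shock proteins work as a relay. HSP70 proteins bind unfolded stretches of other proteins, J-domain proteins such as Dnajb1 and Dnaja1 deliver those clients and trigger ATP hydrolysis, and the HSP110 protein Hsph1 exchanges the spent nucleotide. HSP90 proteins then finish the folding of kinases and hormone receptors with the help of cochaperones, while Hspd1 and its lid Hspe1 fold proteins inside mitochondria. Both HSP70 and HSP90 exist as a form made at all times (Hspa8, Hsp90ab1) and a form that stress induces (Hspa1a and Hspa1b, Hsp90aa1). Under heat or other protein-damaging stress, Hsf1 binds heat shock elements, repeats of GAA in alternating orientation, in the promoters of these genes.

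Heat shock elements are shown first because Hsf1 is known to act through them. The RefSeq promoter table (GRCm38.p6) had an entry for 6 of the 10 genes, Hspa1a, Hspa1b, Dnajb1, Dnaja1, Hsph1 and Hspd1, and for the partner gene Hspe1. The 250 bases before each start site were searched for GAANNTTC and TTCNNGAA, each of which reads the same on both strands, and overlapping matches were counted. At least 1 match lay before a start site of 5 of the 6 genes, the exception being Dnajb1. For Dnaja1 only the first start site listed had a match. The matches of Dnaja1, Hsph1 and Hspd1 lie within the annotated span of the gene itself. Of all 32851 promoters in the table, 12.8% held either motif, and genes with several start sites have several promoters and so more chances of a match. A match is a run of letters, not a measured binding site. The near-identical neighbours Hspa1a and Hspa1b have almost the same promoter, with 247 of 250 bases equal, and in both the single match starts 104 bases before the start site. Their promoters on the minus strand of chromosome 17, chr17:34972157-34972406 for Hspa1a and chr17:34959239-34959488 for Hspa1b, are printed with that match in capitals.
Hspa1a: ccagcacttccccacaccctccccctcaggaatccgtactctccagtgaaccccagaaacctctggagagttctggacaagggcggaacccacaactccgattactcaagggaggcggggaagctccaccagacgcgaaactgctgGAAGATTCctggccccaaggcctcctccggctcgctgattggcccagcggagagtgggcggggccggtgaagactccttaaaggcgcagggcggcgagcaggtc
Hspa1b: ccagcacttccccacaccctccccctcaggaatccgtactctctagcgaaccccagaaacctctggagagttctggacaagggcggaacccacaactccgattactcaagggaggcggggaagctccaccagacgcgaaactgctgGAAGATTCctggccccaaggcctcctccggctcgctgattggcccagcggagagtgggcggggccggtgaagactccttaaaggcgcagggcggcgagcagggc

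Hspd1 and Hspe1 lie head to head on chromosome 1 and share 1 element of 18 bases, made of 3 overlapping matches. It covers bases 55088059 to 55088076, starting 89 bases before the Hspe1 start site and 144 bases before the second Hspd1 start site in the table. It lies within the annotated span of Hspd1 on GRCm38. A run of 3 such units, GAANNTTC with a further GAA after 2 bases or TTCNNGAA with a further TTC after 2 bases, occurred in 0.466% of all promoters in the table. Before the first Hsph1 start site a single match starts at 33 bases. The elements are printed in capitals with their flanks, Hspe1 on the plus strand (chr1:55088053-55088082) and Hsph1 on the minus strand (chr5:149636356-149636375).
Hspe1: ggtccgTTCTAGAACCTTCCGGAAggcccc
Hsph1: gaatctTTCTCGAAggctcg

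Values are FPKM, a fragment count divided by transcript length and by library size. Levels can be compared between genes, while a comparison between libraries also depends on what else each library holds. Read totals were not stated; steps in the values of short single-exon genes gave an estimated depth of 20600000 to 32400000 fragments per library. The 6 libraries summed to between 332289 and 383600 FPKM. Immunoglobulin genes took 23.4% to 23.7% of that sum in MHCII-hi and 0.493% to 0.502% in MHCII-lo, which leaves a smaller share of the sum for other genes in MHCII-hi. The changes of the 10 genes and the counts of the lists are therefore given on the deposited scale and again with every library scaled to its sum without immunoglobulin genes. The second scale raised the median log2 change of all genes by 0.15, from -0.04 to 0.11.

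The sort was visible in the transcripts, since the class II chaperone Cd74 averaged 359 ± 6.82 FPKM (SD, n = 3) with high MHC class II and 12.8 ± 0.405 with low. Against the HSC label, the stem cell genes Mecom, Fgd5, Procr and Slamf1 averaged at most 0.497 FPKM in either group, and Kit averaged 14.98 and 12.6. Of 10 stem cell genes listed 5 were tested, of which 3 were higher, 1 was lower and 1 did not pass. They summed to 55.6 to 61.0 FPKM in MHCII-hi against 20.6 to 21.0 in MHCII-lo, and most of that difference was Ly6a (35.5 against 2.50 FPKM), a gene singled out once its values were known. Of the markers of other cell types, 10 of 11 plasma cell genes, 4 of 4 tested B cell genes, 9 of 10 tested T and NK cell genes, 9 of 10 eosinophil, basophil and mast cell genes and 7 of 7 tested dendritic cell genes were higher in MHCII-hi. All 12 neutrophil genes and 7 of 10 erythroblast genes were lower, and monocyte and macrophage genes split 4 to 4. Of all tested genes 25.5% were higher and 33.1% lower in the test described below. Scaled without immunoglobulin genes, 40.6% of all genes were higher and 17.5% lower. On that scale 10 plasma cell, 5 B cell and 7 dendritic cell genes were higher. So were 10 T and NK cell genes and 9 eosinophil, basophil and mast cell genes. Lower were 11 neutrophil and 6 erythroblast genes, monocyte and macrophage genes again split 4 to 4, and stem cell genes had 4 higher and 1 lower. Summed, the neutrophil genes stood at 18290 to 18570 FPKM in MHCII-hi against 41020 to 41590 in MHCII-lo, and the plasma cell genes at 19730 to 20270 and 449 to 466. B cell genes summed to 56.3 to 58.3 and 7.24 to 8.70 FPKM, T and NK cell genes to 219.6 to 232 and 169 to 178, and eosinophil, basophil and mast cell genes to 7158 to 7295 and 2817 to 2849. Dendritic cell genes summed to 98.7 to 107 and 35.3 to 37.0 FPKM, erythroblast genes to 294 to 304 and 459.5 to 471, and monocyte and macrophage genes to 2192 to 2260 and 3208 to 3225. Single genes, singled out once their values were known, held most of some sums. Lyz2 did so among monocyte and macrophage genes (1763 against 2652 FPKM, MHCII-hi first), and Prg2 among eosinophil, basophil and mast cell genes (4902 against 2024). Nkg7 did so among T and NK cell genes (148 against 150), and Igkc among plasma cell genes. No marker on these lists was at 0 in all libraries of a group. These markers move with every difference below, their part in it was not tested, and in bulk RNA fewer cells of a type and less RNA per cell cannot be told apart.

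By level, the genes made at all times led and the stress-induced HSP70 genes came last. Over the 6 libraries Hsp90ab1 averaged 634 FPKM, Hspa8 419, Hsp90aa1 231, Hspd1 153, Dnaja1 29.6, Dnajb1 23.0, Hsph1 6.70, Hsf1 4.19, Hspa1a 3.14 and Hspa1b 2.93. In each group the libraries of neighbouring genes in this order did not overlap, except those of Hspa1a and Hspa1b. Hsp90ab1 stood above 99.5% of the 12110 genes tested in mean level, and Hspa1b above 24.1%.

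**Figure D1:**
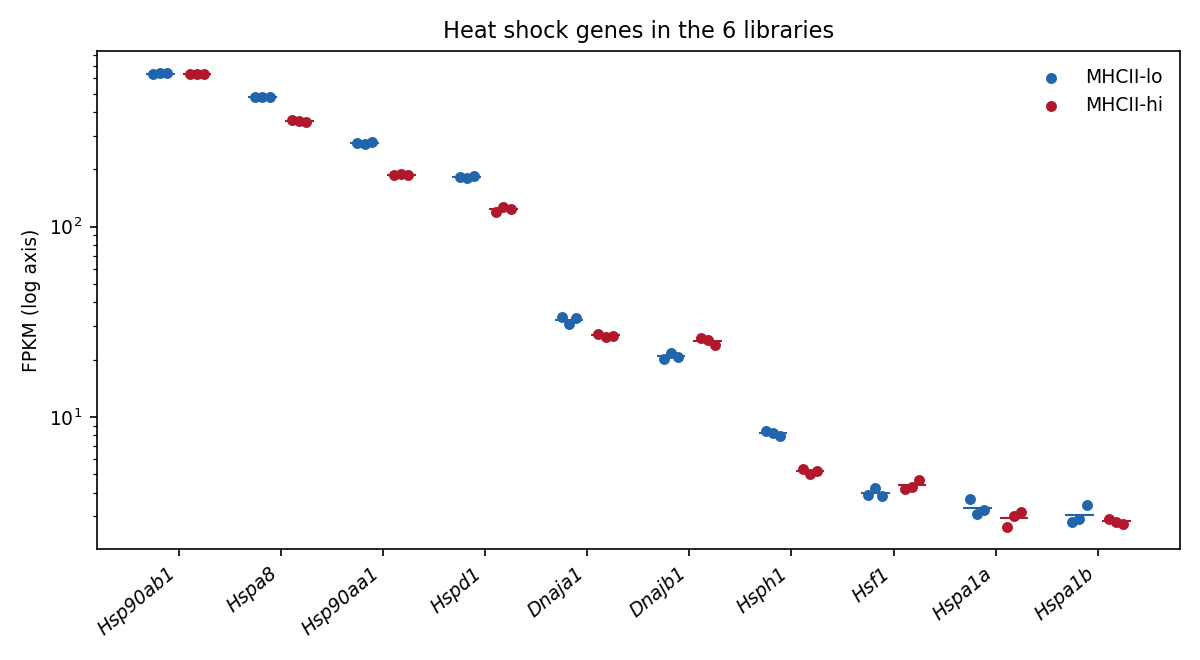
FPKM of each heat shock gene on a log axis, ordered by mean level, with MHCII-lo libraries in blue, MHCII-hi libraries in red (n = 3 each) and a line at each group mean. Hspa8, Hsp90aa1, Hspd1, Dnaja1 and Hsph1 lie lower in MHCII-hi, Dnajb1 lies higher, and the groups overlap for Hsp90ab1, Hsf1, Hspa1a and Hspa1b.

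Comparing MHCII-hi with MHCII-lo cells, 5 of the 10 genes were lower (Hspa8, Hsp90aa1, Dnaja1, Hsph1, Hspd1), 1 was higher (Dnajb1) and 4 did not pass the test (Hspa1a, Hspa1b, Hsp90ab1, Hsf1). The test was limma on log2(FPKM + 1) over every gene that averaged 1 FPKM or more, at a Benjamini-Hochberg adjusted p of 0.05. All 10 genes passed that minimum. Of all tested genes 58.6% passed in either direction, 33.1% as lower and 25.5% as higher, so the share of heat shock genes called is close to the background. The same 5 and 1 were the genes whose libraries did not overlap between the groups, which held for 65.8% of all tested genes, 36.8% lower and 29% higher. The median log2 change of the 10 genes was -0.20, against -0.04 for all genes. Among 515 tested genes that averaged 100 FPKM or more, a level that Hsp90ab1, Hspa8, Hsp90aa1 and Hspd1 exceed, 51.1% were lower and 35.3% higher, with a median of -0.11. Scaled without immunoglobulin genes, 4 of the 10 were lower and 3 higher, against 17.5% and 40.6% of all genes, 58.2% in either direction.

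The constitutive HSP70 Hspa8 (chromosome 9, 40800984 to 40810087) stood at 482, 479 and 481 FPKM in MHCII-lo and 361, 358 and 354 in MHCII-hi. The groups were far apart, with every MHCII-hi library below every MHCII-lo library. The mean was 1.34-fold lower (log2 change -0.43, SE 0.01, limma adjusted p = 1.21e-06), and the log2 change was -0.25 when scaled without immunoglobulin genes (limma adjusted p = 1.63e-05). Its transcripts share 34.6% of their 50-base words with the copy Gm15459, which was listed at 72.5 FPKM in MHCII-hi against 101 in MHCII-lo, so fragments may have been split between them. With the copies added to Hspa8 the log2 change stayed at -0.43.

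The stress-induced HSP70 genes were scarce in both groups. Hspa1a (chromosome 17, 34969190 to 34972156) stood at 3.71, 3.08 and 3.22 FPKM in MHCII-lo and 2.65, 3.03 and 3.16 in MHCII-hi. Its neighbour Hspa1b (chromosome 17, 34956436 to 34959238) stood at 2.79, 2.92 and 3.43 FPKM in MHCII-lo and 2.92, 2.80 and 2.74 in MHCII-hi. The groups overlapped for both genes, and neither passed the test. Log2 changes were -0.14 for Hspa1a (95% interval -0.33 to 0.06, limma adjusted p = 0.187) and -0.08 for Hspa1b (-0.25 to 0.09, limma adjusted p = 0.375). They were 0.00 and 0.05 when scaled without immunoglobulin genes, and neither passed (limma adjusted p = 0.992 and 0.561). Both are single-exon genes, and at the estimated depth these values rest on 161 to 265 fragments per library, a counting error of 6.14% to 7.87% that covers sampling only.

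Hspa1a shares 58.8% of its 50-base words with Hspa1b, so the division between them is uncertain and their sum is the safer value. Summed, they stood at 6.5, 6 and 6.65 FPKM in MHCII-lo and 5.57, 5.83 and 5.90 in MHCII-hi. The groups of the sum did not overlap, by a narrow margin. Its log2 change on the log2(FPKM + 1) scale was -0.13 (limma adjusted p = 0.0672). The log2 difference of the sum in FPKM was -0.15. As a share of the FPKM summed over all genes, the sum was 0.00192% in MHCII-lo and 0.00151% in MHCII-hi. That was a log2 difference of -0.35 (exact permutation test, two-sided, p = 0.1, the minimum with 3 against 3 libraries). As a share of the sum without immunoglobulin genes, the log2 difference was 0.03 (exact permutation p = 0.6), so its direction depends on the scale.

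The HSP90 genes parted. Stress-induced Hsp90aa1 (chromosome 12, 110690605 to 110702728) stood at 274, 272 and 277 FPKM in MHCII-lo and 187, 189 and 186 in MHCII-hi. It was 1.46-fold lower with no overlap (log2 change -0.55, SE 0.02, limma adjusted p = 7.21e-07), and -0.37 when scaled without immunoglobulin genes. Hsp90aa1 had the smallest p of the 10 genes. It shares 41.8% of its 50-base words with the copy Gm12346, listed at 12.5 FPKM in MHCII-hi against 19.0 in MHCII-lo, and with its copies added the log2 change stayed at -0.55. Constitutive Hsp90ab1 (chromosome 17, 45567775 to 45573271) stood at 633, 638 and 637 FPKM in MHCII-lo and 629.7, 633 and 633 in MHCII-hi. These groups overlapped, and the log2 change was -0.01 (95% interval -0.04 to 0.02, limma adjusted p = 0.576). Scaling decides its direction: the change was 0.17 when scaled without immunoglobulin genes (limma adjusted p = 5.83e-05), -0.07 with upper-quartile scaling (limma adjusted p = 0.00558) and -0.46 with quantile normalization (limma adjusted p = 9.55e-07). Quantile normalization also gave larger decreases for Hsp90aa1 (-0.96), Hspa8 (-0.88) and Hspd1 (-0.87).

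Of the J-domain proteins, Dnajb1 was higher and Dnaja1 lower in MHCII-hi. Dnajb1, the J-protein partner of stress-induced HSP70 (chromosome 8, 83608193 to 83612653), stood at 20.3, 21.7 and 20.7 FPKM in MHCII-lo and 25.99, 25.5 and 23.9 in MHCII-hi. It was 1.20-fold higher with no overlap (log2 change 0.26, SE 0.04, limma adjusted p = 0.00224), and 0.43 when scaled without immunoglobulin genes. Dnaja1, a J protein that serves constitutive HSP70 (chromosome 4, 40722150 to 40737149), stood at 33.3, 30.9 and 33.2 FPKM in MHCII-lo and 27.4, 26.4 and 26.6 in MHCII-hi. It was 1.21-fold lower with no overlap (log2 change -0.27, SE 0.04, limma adjusted p = 9.69e-04). Scaled without immunoglobulin genes, its log2 change was -0.09 and did not pass (limma adjusted p = 0.0657).

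The exchange factor Hsph1 (chromosome 5, 149614287 to 149636376) had the largest fold of the 10 genes on the deposited scale. It stood at 8.46, 8.27 and 7.96 FPKM in MHCII-lo and 5.31, 5.02 and 5.20 in MHCII-hi. Every MHCII-hi library lay below every MHCII-lo library, 1.59-fold lower in the mean (log2 change -0.58, SE 0.04, limma adjusted p = 4.12e-05), and the change was -0.43 when scaled without immunoglobulin genes. Of all tested genes 5.02% had a more negative log2 change than Hsph1.

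Inside mitochondria the chaperonin Hspd1 and its lid fell by similar folds. Hspd1 (chromosome 1, 55077835 to 55088243) stood at 182, 180.1 and 185 FPKM in MHCII-lo and 119, 127 and 124 in MHCII-hi, 1.48-fold lower in the mean (log2 change -0.56, SE 0.03, limma adjusted p = 6.72e-06). Hspe1 (chromosome 1, 55088132 to 55091307) stood at 59.96, 59.8 and 60.2 FPKM in MHCII-lo and 39.5, 40.2 and 40.8 in MHCII-hi, 1.49-fold lower (log2 change -0.57, SE 0.02, limma adjusted p = 2.90e-06). Neither gene's groups overlapped, and both changes were -0.39 when scaled without immunoglobulin genes. These are the genes that share the 18-base element printed above. Hspd1 shares 38.0% of its 50-base words with the pseudogene Hspd1-ps3, listed at 5.68 and 8.90 FPKM in MHCII-hi and MHCII-lo, and with it added the log2 change was -0.57.

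Hsf1, the factor that switches on the stress-induced members (chromosome 15, 76477422 to 76501913), stood at 3.90, 4.23 and 3.86 FPKM in MHCII-lo and 4.17, 4.29 and 4.66 in MHCII-hi. The groups overlapped, and the log2 change was 0.10 (95% interval -0.03 to 0.24, limma adjusted p = 0.158). It passed as higher when scaled without immunoglobulin genes (0.25, limma adjusted p = 0.00926). Hsf1 protein is controlled largely after translation, which RNA levels do not show.

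**Figure D2:**
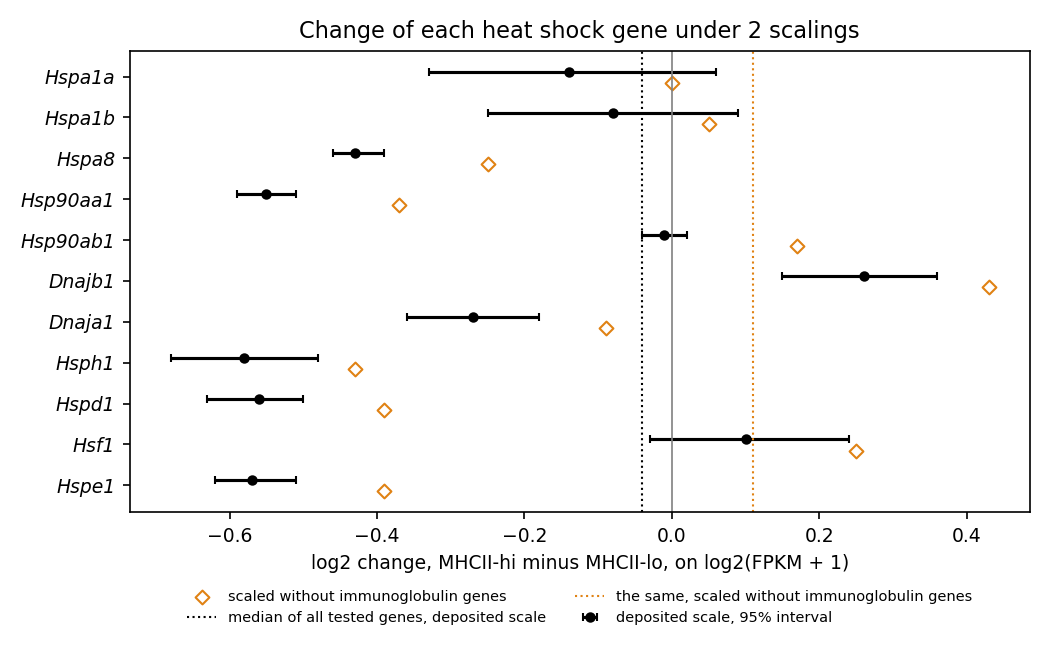
Log2 change of each heat shock gene and of Hspe1, MHCII-hi minus MHCII-lo, on log2(FPKM + 1): black points with 95% limma intervals on the deposited scale, open diamonds after scaling without immunoglobulin genes. Dotted lines mark the medians of all tested genes, -0.04 and 0.11; Hsp90aa1, Hspd1, Hspe1, Hsph1 and Hspa8 lie below 0 on both scales and Dnajb1 above.

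**Figure D3:**
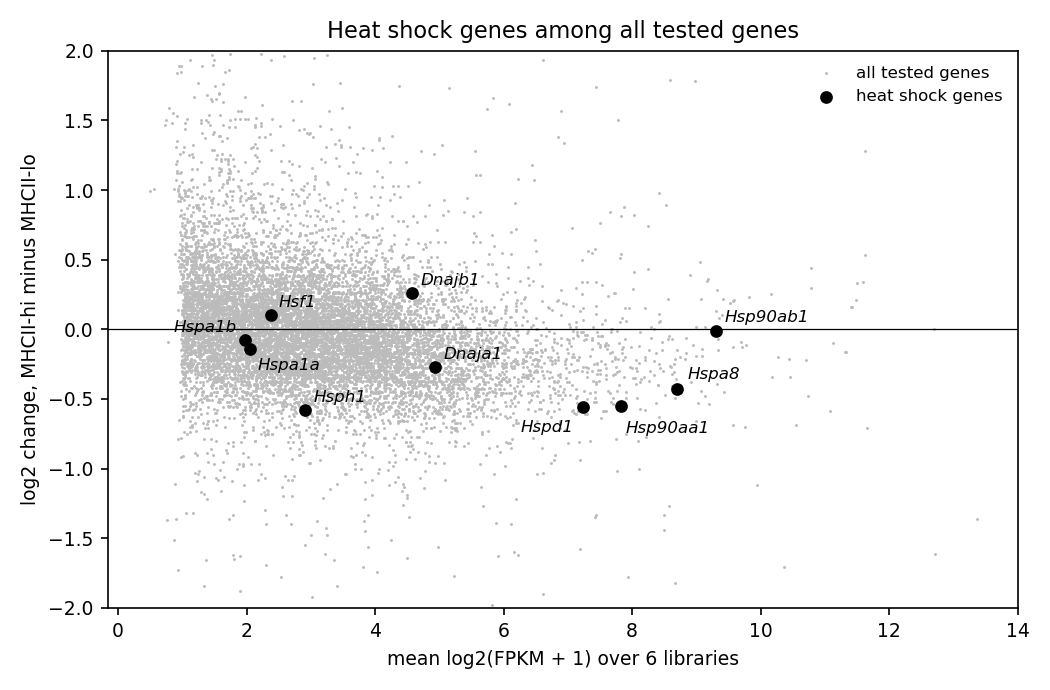
Log2 change against mean log2(FPKM + 1) over 6 libraries for all 12110 tested genes (grey) and the 10 heat shock genes (black); 268 grey genes lie outside the vertical axis range. Hsp90aa1, Hspd1 and Hspa8 lie low among abundant genes, and Hsp90ab1 lies near 0.

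Ratios between 2 genes of the same library do not depend on how that library was scaled, so the immunoglobulin share does not enter them. The ratio of Hsp90aa1 to Hsp90ab1 was 0.433, 0.426 and 0.435 in MHCII-lo and 0.297, 0.299 and 0.294 in MHCII-hi, a log2 difference of -0.54. The ratio of Dnajb1 to Dnaja1 was 0.609, 0.702 and 0.624 in MHCII-lo and 0.949, 0.964 and 0.898 in MHCII-hi, a log2 difference of 0.54. In both ratios all 3 MHCII-hi libraries lay on 1 side of all 3 MHCII-lo libraries. The MHCII-hi libraries thus held less Hsp90aa1 per Hsp90ab1 and more Dnajb1 per Dnaja1.

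The ratio of summed Hspa1a and Hspa1b to Hspa8 averaged 0.0133 in MHCII-lo and 0.0161 in MHCII-hi, a log2 difference of 0.28. The same sum per Hsf1 averaged 1.60 in MHCII-lo and 1.32 in MHCII-hi, a log2 difference of -0.28. The ratio of Hsph1 to Hspa8 averaged 0.0171 and 0.0145, a log2 difference of -0.24. The groups did not overlap in any of these 3 ratios either. Among all tested single genes 65.8% did not overlap, and no such share was computed for ratios of other gene pairs. Only Hspd1 to Hspe1 overlapped among the 6 ratios, at 3.03, 3.01 and 3.07 in MHCII-lo and 3.01, 3.16 and 3.03 in MHCII-hi (log2 difference 0.01, two-sided exact permutation p = 0.9). For the other 5 ratios the exact permutation p (two-sided) was 0.1, the minimum of the design, and 0.114 after Benjamini-Hochberg adjustment over the 8 ratios and shares computed.

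**Figure D4:**
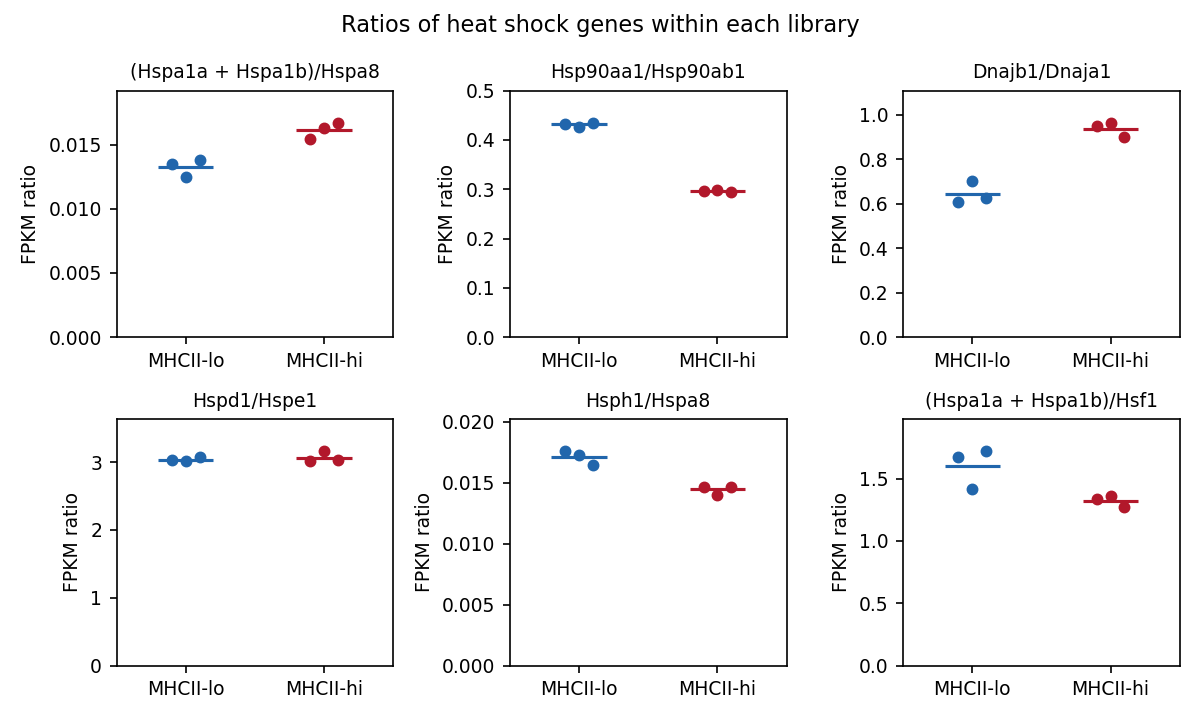
FPKM ratios of heat shock genes within each library, 1 panel per ratio with axes from 0, MHCII-lo in blue and MHCII-hi in red, with a line at each mean (n = 3). Hsp90aa1 to Hsp90ab1 is lower and Dnajb1 to Dnaja1 higher in all MHCII-hi libraries, while Hspd1 to Hspe1 stays near 3.04 and 3.07.

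Together the 10 genes took 0.493%, 0.493% and 0.496% of the summed FPKM in MHCII-lo and 0.356%, 0.359% and 0.356% in MHCII-hi. The shares did not overlap (log2 difference -0.47, two-sided exact permutation p = 0.1). In FPKM, not divided by that sum, the log2 difference was -0.27. Against the sum without immunoglobulin genes the log2 difference was -0.09 (exact permutation p = 0.1).

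The wider chaperone network was described from 9 overlapping lists of 121 genes other than the 10, of which 101 were tested. In MHCII-hi 62 were lower, 14 were higher and 25 did not pass, with a median log2 change of -0.20, against 33.1% lower and 25.5% higher among all genes. Scaled without immunoglobulin genes, 35 were lower and 25 higher, against 17.5% and 40.6% of all genes. In the HSP90 family with its cochaperones, 15 of 19 genes were lower and 2 higher, and 9 were lower and 2 higher when scaled without immunoglobulin genes. Ahsa1, which activates the HSP90 ATPase, averaged 22.7 ± 0.501 against 33.7 ± 0.821 FPKM, and Cacybp averaged 38.0 ± 1.71 against 64.7 ± 3.21 (SD, n = 3, MHCII-hi first here and below). The HSP90 of the endoplasmic reticulum, Hsp90b1, averaged 230.5 ± 3.81 against 279 ± 3.96 FPKM.

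The cytosolic chaperonin CCT and its feeder prefoldin, which fold actin and tubulin, had 13 of 14 genes lower and 1 higher. That 1, Pfdn5, was named after its values were seen, and it no longer passed without MHCII-lo replicate 1, with upper-quartile scaling or with quantile normalization. The CCT subunit genes Cct8 and Cct6a averaged 82.1 ± 1.19 against 125 ± 1.32 FPKM and 51.6 ± 0.987 against 79.6 ± 1.30, and Tcp1 averaged 55.4 ± 1.71 against 70.7 ± 0.242. Of the mitochondrial chaperones and proteases 11 of 14 were lower and 3 did not pass. They included Hspe1, the mitochondrial HSP70 Hspa9 at 63.5 ± 1.09 against 87.6 ± 1.67 FPKM, and the mitochondrial HSP90 Trap1 at 36.1 ± 0.396 against 45.2 ± 0.615. Scaled without immunoglobulin genes, CCT and prefoldin had 9 lower and 2 higher and the mitochondrial list 6 lower and 1 higher. The shares of all tested genes were 33.1% lower and 25.5% higher on the deposited scale, and 17.5% and 40.6% on the second.

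Other HSP70 family genes were lower in 6 of 8 cases and 2 did not pass, and 4 were lower and 1 higher when scaled without immunoglobulin genes. For this list and those below, the shares of all tested genes were 33.1% lower and 25.5% higher, and 17.5% and 40.6% on the second scale. Hyou1 averaged 26.04 ± 0.0872 against 36.2 ± 0.577 FPKM and Hspa4, an HSP110-type exchange factor, averaged 38.3 ± 1.05 against 48.6 ± 0.709. Of 33 other J-domain genes 15 were lower, 4 were higher and 14 did not pass; the 4 became 2 without MHCII-hi replicate 1, MHCII-hi replicate 3 or MHCII-lo replicate 3. Scaled without immunoglobulin genes, 11 J-domain genes were higher and 8 lower, against 40.6% and 17.5% of all genes. Dnajc8 and Dnaja2 were lower, at 41.2 ± 0.231 against 52.5 ± 0.459 and 44.7 ± 1.52 against 58.7 ± 0.407 FPKM. Dnajb4, a close relative of Dnajb1, was higher at 5.01 ± 0.201 against 2.48 ± 0.18 FPKM (log2 change 0.79, limma adjusted p = 4.65e-05). The exchange factors and the ligase Stub1 gave 4 lower, 3 higher and 4 not past the test, with Bag1 lower at 64.4 ± 2.73 against 75.5 ± 0.765 FPKM, and Bag3 and Sil1 higher at 7.91 ± 0.787 against 5.22 ± 0.401 and 7.92 ± 0.513 against 5.95 ± 0.231 FPKM. Without immunoglobulin genes in the scaling, 4 of these genes were higher and 1 lower, and Bag1 did not pass (-0.05, limma adjusted p = 0.217). On both scales the counts of the exchange factors and Stub1 were near the shares of all tested genes given above.

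Genes known as Hsf1 targets did not move as a block. Of 14 tested targets outside the 10 genes, 6 were higher, 7 were lower and 1 did not pass. The shares of all tested genes were 25.5% higher and 33.1% lower. Scaled without immunoglobulin genes, 7 of the 14 were higher and 7 lower, against 40.6% and 17.5% of all genes. Ier5, an Hsf1 target and an immediate early gene that feeds back on Hsf1, averaged 54.9 ± 1.33 against 30.3 ± 1.51 FPKM. Bag3 and Dnajb4 were also on the higher side, and Hspe1, Ahsa1 and Cacybp were on the lower side. Other targets were named after their values were seen: Ubb and the autophagy receptor Sqstm1 were higher, and Chordc1, Stip1, Fkbp4 and Mrpl18 were lower.

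Small heat shock proteins were scarce: 8 of 9 averaged below 1 FPKM, as did 18623 of all 30733 gene symbols. Hspb1, a standard stress-induced member, was listed at 0, 0 and 0.24 FPKM in MHCII-lo and 0.34, 0 and 0.40 in MHCII-hi. Of the other heat shock factors and regulators, 2 were tested. The regulator Hsbp1 was lower at 21.1 ± 0.934 against 23.2 ± 0.386 FPKM (log2 change -0.13, limma adjusted p = 0.0226), a call that was lost without MHCII-lo replicate 1, without MHCII-lo replicate 3, with quantile normalization and when scaled without immunoglobulin genes. Hsf2 averaged 2.23 ± 0.0917 against 1.77 ± 0.28 FPKM and passed only when scaled without immunoglobulin genes (0.34, limma adjusted p = 0.014).

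**Figure D5:**
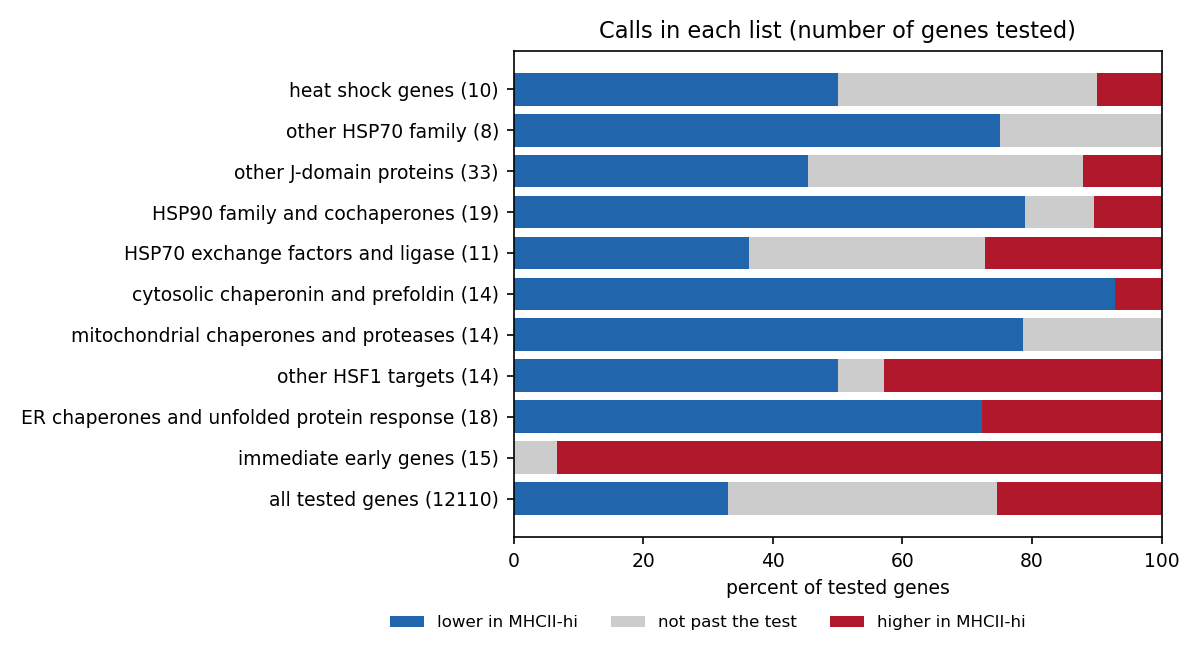
Percent of tested genes that were lower (blue), higher (red) or not past the limma test (grey) in MHCII-hi, per list, with the number tested in parentheses. CCT with prefoldin, HSP90 cochaperones and mitochondrial chaperones are mostly blue, Hsf1 targets are split, and immediate early genes are red in 14 of 15.

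Immediate early genes, which are transcribed within minutes of many stimuli, are set beside the heat shock genes as another group of rapidly induced genes. Of 15 genes 14 were higher in MHCII-hi and 1 did not pass, with a median log2 change of 0.68, against 25.5% of all tested genes higher. All 15 were higher when scaled without immunoglobulin genes, against 40.6% of all genes. Fosb averaged 185 ± 4.8 against 70.7 ± 1.26 FPKM, Jun 498 ± 3.90 against 269 ± 4.41, and Egr1 100.2 ± 2.73 against 31.1 ± 1.27. Summed Hspa1a and Hspa1b in the same libraries averaged 5.77 ± 0.174 against 6.38 ± 0.34 FPKM.

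The 5 genes whose values were most like those of Hsp90aa1 over the 6 libraries were Plac8, Actr2, Emb, Cox6c and Lcp1. Likeness was the root mean square distance between log2(FPKM + 1) values after centring each gene, and it ran from 0.0108 for Plac8 to 0.0164 for Lcp1. Their log2 changes were -0.54, -0.53, -0.55, -0.54 and -0.53. With 6 libraries in 2 groups this measure mostly finds genes with the same difference between groups.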

How the data were processed

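Sorted cells gave RNA for strand-specific mRNA libraries, per the labels. FPKM values were computed and deposited by the authors, 1 table per library, with fastp, HISAT2, StringTie and GRCm38 (mm10) named in the submitters' processing notes without versions; the annotation they used is not stated. No header names the unit, which was read from values that are not whole and sum to 332289 to 383600. Of 30803 rows, 70 that repeated a symbol were dropped, keeping the row with the highest mean. The 12110 genes that averaged 1 FPKM or more were tested with limma 3.58.1 in R 4.3.3 on log2(FPKM + 1), a pseudocount of 1, with an intensity trend, no covariate, two-sided, and Benjamini-Hochberg adjustment over all tested genes. This scale understates the change of low genes, and folds are ratios of mean FPKM. Ratios and shares used exact permutation tests. Immunoglobulin genes and coordinates were taken from GENCODE M21, promoters from RefSeq.

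The genes, lists and alternatives were chosen with earlier results of these data known. Named were the 10 genes, Hspe1, genes for the label check, the 3 genes with the smallest p among those past the test in each network list, and the 5 genes most like the member with the smallest p; others are marked where they stand. The values of 1 gene that this rule names are not reported here. Depth was estimated from steps of 1 fragment in single-exon genes of 100 to 1000 bases, sought within a fixed window. No 2 libraries were duplicates: at most 28.2% of values were identical in any pair. On simulated data of 3 against 3 libraries (12110 genes, 50 changed at each size), limma called 56% of genes changed 1.25-fold, 84% at 1.5-fold and 98% at 2-fold, with 14 false calls. The simulation changed far fewer genes than the 58.6% called in the data, and its noise was drawn from a normal distribution. Its rates need not hold for the data themselves.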

Additional observations from a re-analysis of the deposited data

How the results depend on the processing

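Calls for Hspa8, Hsp90aa1, Hsph1, Hspd1, Hspe1 and Dnajb1 kept direction and stayed past the threshold in every alternative run, 6 of them leaving out 1 library. Scaling without immunoglobulin genes gave 4934 genes higher and 2127 lower in place of 3084 and 4009, so 69.9% in place of 43.5% of called genes were higher; it gave 3 of the 10 heat shock genes higher in place of 1, and 25 network genes higher and 35 lower in place of 14 and 62. Under it Hspa1b changed sign to 0.05, Hsp90ab1 to 0.17, and the Hspa1a and Hspa1b share to 0.03. Quantile normalization put Hspa1a past the threshold (-0.24, limma adjusted p = 0.0378) and gave 7 of the 10 genes as lower. A minimum of 5 FPKM gave 1792 genes higher, fewer genes being tested, and left Hspa1a, Hspa1b and Hsf1 untested. The Hspd1 to Hspe1 ratio ranged from -0.01 (without MHCII-hi replicate 2) to 0.02 (without MHCII-lo replicate 3). Without 1 library, genes higher ranged from 2716 to 2922 and genes lower from 3583 to 3693. Deviations of same-numbered libraries correlated at -0.092, -0.0036 and -0.0347, and those of differently numbered libraries at -0.0313 to 0.0729. These values cannot show whether replicate numbers pair libraries, since the spread may be technical. A replicate block gave 2856 genes higher and 3782 lower and left 1 heat shock gene higher and 5 lower. Adding near-identical copies was chosen after seeing the data. Hspa1a and Hspa1b, at 161 to 265 estimated fragments per library, had the widest intervals of the 10 genes; the cause was not tested.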

Other observations

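Genes for chaperones of the endoplasmic reticulum, which fold secreted proteins, were listed together with genes of its unfolded protein response. Of these 18 genes 13 were lower in MHCII-hi and 5 higher, with a median log2 change of -0.33. Among all tested genes 33.1% were lower and 25.5% higher. The 5 higher were Herpud1 and, named after their values were seen, Dnajb9 and the transcription factors Xbp1, Atf4 and Ddit3. Scaled without immunoglobulin genes, 10 of the 18 were lower and 5 higher, against 17.5% and 40.6% of all genes. Pdia3, a disulfide isomerase, averaged 226 ± 2.21 FPKM in MHCII-hi against 318 ± 3.48 in MHCII-lo, and Sdf2l1 averaged 48.6 ± 0.767 against 86.1 ± 3.59 (SD, n = 3). Herpud1, which serves the disposal of misfolded proteins, averaged 72.7 ± 1.67 against 29.3 ± 0.785 FPKM (log2 change 1.28, SE 0.03, limma adjusted p = 1.75e-07). Plasma cell markers, a list that also holds Xbp1, summed to 19730 to 20270 FPKM in MHCII-hi and 449 to 466 in MHCII-lo. Their sum was thus higher in MHCII-hi, where 13 of these 18 genes were lower. The part of these markers in the changes was not tested.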
